A study of Mus musculus with 12 samples.

Results

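Gene expression in regulatory T cells (Tregs) with wild-type (WT) Foxp3 was set against that in conventional CD4+ T cells given the same WT Foxp3 by a retrovirus. The 4 arrays were taken by their titles, 2 for WT Tregs and 2 for WT-transduced cells, out of 12 arrays in the study. Each gene was read from a probe set that names it alone, the brightest where a gene had several, and 8912 of 16416 genes were bright enough to test. The other 8 arrays hold Tregs and transduced cells with the M354 or the M176 form of Foxp3, whose amino acid changes the sources used here do not give.

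The WT Tregs carried Foxp3(WT/WT), had the surface markers CD4, TCRb and CD25, and passed through 2 rounds of sorting for DAPI-negative, CD4+ CD25-high cells. The WT-transduced cells were conventional T cells (Tcons) of WT genotype that received WT Foxp3 from a retrovirus and were collected by CD4, TCRb and high Thy1.1. Both groups are labelled as spleen cells of male C57Bl/6 mice aged 6 weeks, and the labels do not settle whether the transduced cells spent time in mice after transduction. The design holds no Tcons with an empty vector, so the origin of the cells, their activation and transduction, and the source of Foxp3 cannot be told apart. The labels name no separate mouse or culture for either array of a group, so p-values measure the spread between these samples, and 2 arrays a group limit the precision.

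Foxp3 is the transcription factor that specifies the Treg lineage, which restrains immune responses through inhibitory receptors, consumption of interleukin-2 (IL-2) and release of TGF-beta. Forced expression of Foxp3 in activated conventional T cells is a classical way to confer part of the Treg transcriptome and suppressive activity. Activated T cells grow and divide, and take up glucose for glycolysis, while Tregs in the spleen are a mixture of resting and activated cells.

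Values are intensities on a linear scale, as deposited, with both Treg arrays (replicates 1 and 2) given before both transduced arrays. Differences are log2 values, WT Tregs minus WT-transduced cells, given with their standard error (SE), so a positive difference is higher expression in Tregs. Calls were made with limma, at an adjusted p (Benjamini-Hochberg over all 8912 genes) under 0.05. The level of silent genes was taken on each array as the 95th percentile of 874 olfactory receptor genes, an intensity of 55.5 to 84.1. This level was 73.7 and 67.5 in WT Tregs and 55.5 and 62.3 in WT-transduced cells. Its part in small differences of dim genes was not tested. Where a group's mean lay below the silent level, a fold is given as a lower bound (at least), with that group set to the silent level. Chromosomes 1, 10 and 11 have 29, 15 and 226 genes in the table, and Ctla4, Ikzf2, Icos, Il10, Tcf7 and Itgae, among others, are not analysed here.

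The genes of the sort gates and of the vector were examined first. Foxp3 intensities were 5913 and 5327 in WT Tregs and 5945 and 6163 in WT-transduced cells. The arrays of both groups lay close together but did not overlap, and the difference of -0.11 ± 0.13 (SE) was not called (adjusted p = 0.55). The probe set does not separate the endogenous transcript from that of the vector. Il2ra, the CD25 chain of the IL-2 receptor that was part of the Treg gate, measured 8497 and 9013 in WT Tregs and 10312 and 9813 in transduced cells, a difference of -0.20 that was not called. Thy1, whose Thy1.1 form was the sort marker of transduced cells, measured 4353 and 4062 in Tregs and 8989.8 and 8517 in transduced cells, where it was higher by 2.08-fold (adjusted p = 7.9e-06). Transduced cells were collected for high Thy1.1, so this difference is not independent of the sort. Thy1.1 and other Thy1 transcripts were not told apart here. Of 8 CD4+ T cell markers, all were above the silent level on the 4 arrays, and Cd4 itself measured 3709 and 3687 in Tregs and 4354 and 5201 in transduced cells.

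The comparison called 2690 of 8912 genes (30.2%). Of these, 964 were higher in WT Tregs (10.8% of the genes tested) and 1726 higher in WT-transduced cells (19.4%). The counts of all gene and marker lists below stand against these shares. At 2-fold or more 470 genes were called (5.27%), of which 105 were higher in Tregs (1.18%) and 365 in transduced cells (4.1%). The arrays of the 2 groups did not overlap for 64.3% of all genes tested. The median difference over all genes was -0.076, and quantile normalization moved it to 0.036, by which the split became 1358 higher in Tregs and 1287 higher in transduced cells of 2645 called. The split of the calls therefore depended on the scaling, and the count at 2-fold or more ranged from 449 to 543 when each of the 4 arrays was left out in turn. The total fell to 1501 without WT Treg replicate 1 (454 higher in Tregs and 1047 in transduced cells) and to 1626 without WT-transduced replicate 1 (600 and 1026).

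**Figure D1:**
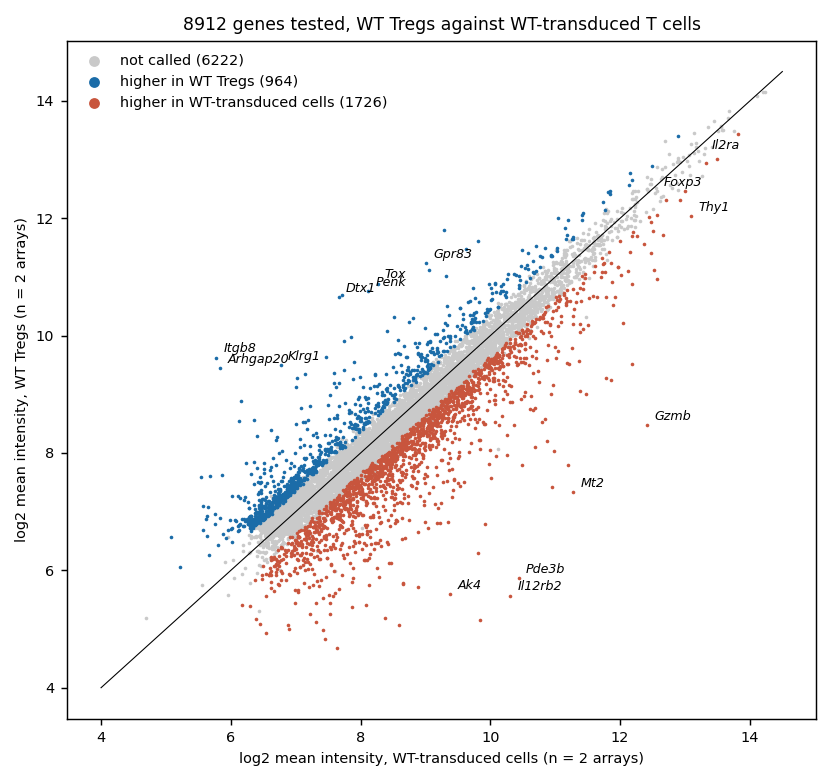
Mean log2 intensity of 8912 genes in WT-transduced cells (x axis, 2 arrays) and WT Tregs (y axis, 2 arrays), with genes called higher in Tregs in blue (964), higher in transduced cells in red (1726) and not called in grey (6222), and the line of equal values in black. Foxp3 and Il2ra lie near the line at high intensity, while Itgb8 and Il12rb2 are among the genes farthest from it.

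Genes known as high in Tregs split into 3 groups of different sizes. Of 27 tested members of this list, 9 were higher in WT Tregs, 6 were higher in WT-transduced cells and 12 were not called, and the list's median difference was 0.036 against -0.076 over all genes. The largest difference belonged to Itgb8, the integrin chain with which Tregs activate latent TGF-beta, which measured 711 and 868 in Tregs and 62.2 and 47.6 in transduced cells. Transduced cells were near the level of silent genes, and Tregs were higher by at least 12.6-fold (adjusted p = 1.4e-11). Klrg1, a lectin-like receptor of mature effector Tregs, measured 640.1 and 801 in Tregs and 117 and 101 in transduced cells (2.72 ± 0.18). Penk, which encodes the opioid precursor proenkephalin, measured 2017 and 1447 against 308 and 246 (2.63 ± 0.19). For both genes the Treg arrays were several times brighter than either transduced array.

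Gpr83, an orphan G-protein-coupled receptor, was bright in Tregs at 2588 and 2224 and measured 517 and 510.1 in transduced cells (2.22 ± 0.15). Cd83, a membrane protein of activated Tregs and antigen-presenting cells, gave 641 and 599 against 136 and 124 (2.26 ± 0.12). Nrp1, the neuropilin that marks many thymus-derived Tregs in mice, gave 1184 and 1221 against 475 and 384 (1.49 ± 0.13). Ccr8, a chemokine receptor of tissue Tregs, was higher in Tregs by 1.52 ± 0.15. The remaining called members were Izumo1r, the folate receptor FR4, at 0.78, and Nt5e, the ectoenzyme CD73 that produces adenosine, at 0.72. All 9 had both Treg arrays above both transduced arrays.

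Members that were not called included the abundant Treg receptors. Il2rb, the beta chain of the IL-2 receptor, measured 5822 and 5513 in Tregs and 5597 and 5455 in transduced cells, a difference of 0.036 ± 0.13. Tnfrsf18, the receptor GITR, measured 4486 and 4007 against 4587 and 4947 (-0.17 ± 0.13). Lrrc32, the surface carrier of latent TGF-beta known as GARP, measured 3932 and 3409 against 3515 and 4371 (-0.098 ± 0.17), and its arrays overlapped. Differences of Tnfrsf4 (OX40), Tigit, Entpd1 (the ectoenzyme CD39), Capg, Dusp4, Ecm1 and Swap70 lay between -0.20 and 0.37. Quantile normalization called Swap70 (0.53) and Dusp4 (0.40) higher in Tregs, and cyclic loess called Swap70 (0.47).

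The 6 members higher in transduced cells were led by Gzmb, the serine protease granzyme B. Gzmb measured 293 and 418 in Tregs and 5549 and 5356 in transduced cells, a 15.6-fold difference (-3.96 ± 0.21, adjusted p = 4e-10). Socs2, a feedback inhibitor of STAT5 signalling, measured 1413 and 1522 against 4199.9 and 3387 (-1.36 ± 0.14). Fgl2, a secreted fibrinogen-like protein, gave 121 and 194 against 494 and 323 (-1.38 ± 0.24). Ebi3, a chain of IL-27 and IL-35, differed by -0.83, Ccr4, a skin-homing receptor, by -0.71 and Tnfrsf9, the receptor 4-1BB, by -0.66. For each of the 6, both transduced arrays were above both Treg arrays.

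Most genes known as low in Tregs were higher in transduced cells. Of 10 tested members, 8 were higher in WT-transduced cells and none was called higher in Tregs, with a median difference of -0.92, or -0.73 with genes near the silent level at their bound. Pde3b, a cyclic nucleotide phosphodiesterase that Foxp3 is known to repress, measured 60.2 and 56.3 in Tregs and 1452 and 1319 in transduced cells, at least 19.6-fold higher (adjusted p = 2.4e-13). Both Treg arrays lay below the silent level. Il7r, the receptor for the survival cytokine IL-7, measured 3188 and 3548 against 6914 and 6027 (-0.94 ± 0.13). Satb1, a chromatin organizer kept low in Tregs, measured 2631 and 2826 against 5987 and 5414 (-1.06 ± 0.14). Cd40lg, the helper ligand for CD40, gave 245 and 302 against 628 and 522 (-1.07). Il2, the growth factor that conventional T cells secrete, measured 53.6 and 50.2 in Tregs, below the silent level, and 112 and 84.1 in transduced cells (at least 1.38-fold higher). Dapl1 and the transcription factor Lef1 differed by -0.998 and -0.52. Tgfbr3, a coreceptor for TGF-beta, was called at -0.35 but lost the call when WT Treg replicate 1, WT Treg replicate 2 or WT-transduced replicate 1 was left out (-0.31, -0.39 and -0.26), and under both other normalizations. Bach2 (-0.13) and Actn1 (0.29) were not called, and after quantile normalization or cyclic loess Actn1 was called higher in Tregs (0.39 in each).

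**Figure D2:**
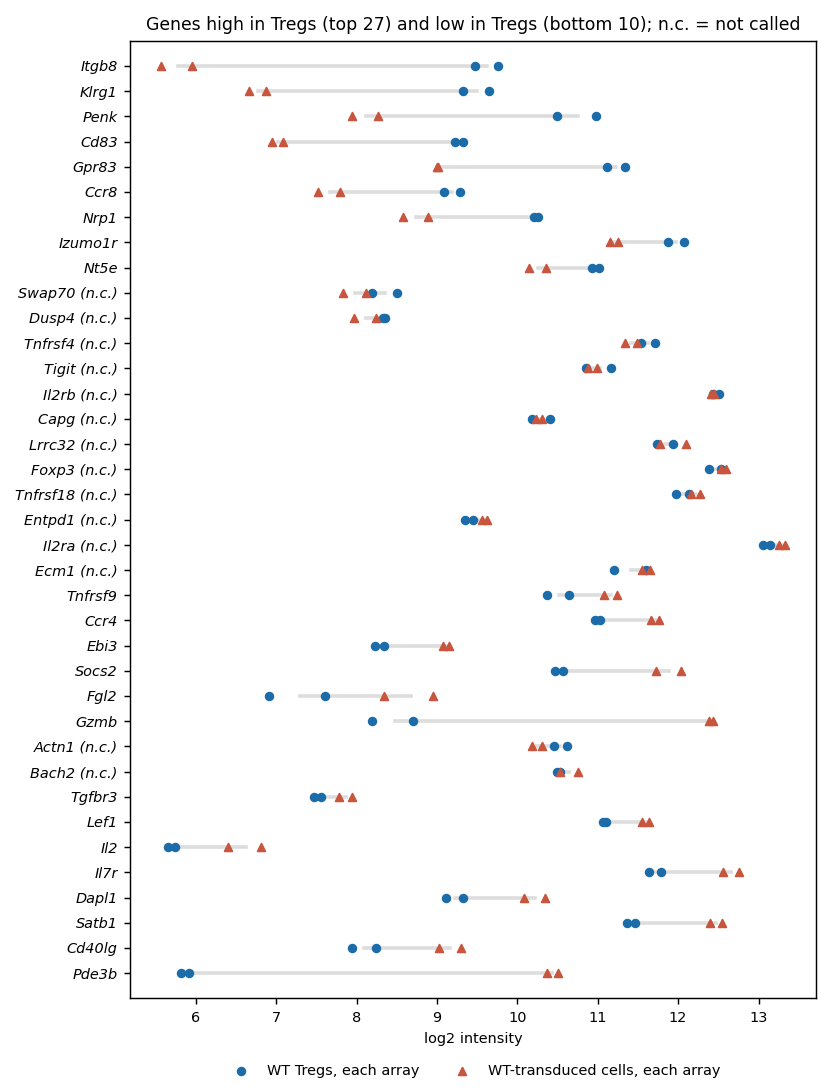
Log2 intensity on each array (x axis) of 27 genes known as high in Tregs (upper rows) and 10 known as low in Tregs (lower rows), with WT Tregs as blue circles, WT-transduced cells as red triangles and a grey bar between the group means; n.c. marks genes not called. Itgb8 to Nt5e have the circles to the right, Tnfrsf9 to Gzmb have them to the left, and most genes between them nearly coincide.

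Among the 15 largest differences higher in WT Tregs, several genes lie outside the classical signature. Arhgap20 measured 635 and 759 in Tregs and 52.1 and 62.1 in transduced cells, at least 11.8-fold higher in Tregs (adjusted p = 5.3e-11). Dtx1, the Notch-pathway ubiquitin ligase Deltex-1, measured 1789 and 1429.6 against 208 and 197 (2.98 ± 0.14). Tox, a nuclear factor of the HMG-box family, measured 1874 and 1904 against 340.2 and 274 (2.63 ± 0.15). None of these arrays overlapped between the groups, and for Dtx1 and Tox the lower Treg array was several times the higher transduced array.

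Ccr6, the receptor for CCL20, measured 418 and 526 in Tregs and 66.2 and 76.9 in transduced cells (2.72 ± 0.15). Flicr, a long non-coding RNA transcribed next to Foxp3 and known to dampen its expression, measured 398 and 356 in Tregs and 79.1 and 84.5 in transduced cells (2.20 ± 0.13). Both Treg arrays were more than 4 times either transduced array. Gsta4, a glutathione transferase, measured 398 and 350.1 against 62.7 and 76.7 (2.43 ± 0.16). Rln3 (2.96), which encodes a relaxin peptide, Atp5md (2.51), a small subunit of the mitochondrial ATP synthase, Ifit1 (2.25) and Ttc28 (2.19) completed the set.

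The 15 largest differences in the opposite direction were led by Il12rb2, the signalling chain of the IL-12 receptor, which measured 45.6 and 49.2 in Tregs and 1382 and 1146 in transduced cells. Treg arrays were below the silent level, and transduced cells were higher by at least 17.8-fold (adjusted p = 2.4e-13). Mt2, a metal-binding metallothionein, measured 100.3 and 223 against 2456 and 2514 (-4.05 ± 0.27). Cysltr1, a leukotriene receptor, measured 68.1 and 88.1 against 912 and 880.1 (-3.53 ± 0.14). Transduced arrays were tightly grouped for both genes, while the Treg arrays of Mt2 differed from each other by more.

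Mmp9, a secreted gelatinase, measured 112 and 109.6 in Tregs and 932 and 1008 in transduced cells (-3.13 ± 0.13), and Tent5a, a poly(A) polymerase, measured 254 and 268 against 2106 and 1949 (-2.96 ± 0.13). Gzmc and Gzma, granzymes of cytotoxic cells, were higher in transduced cells by at least 5.45-fold and at least 5.56-fold. Mpzl2, an adhesion molecule, Atp6v0d2, a subunit of the vacuolar proton pump, and Ctla2a, a cathepsin inhibitor of activated T cells, were higher by at least 6.65-fold, at least 5.69-fold and at least 2.76-fold, with Tregs near the silent level for all 5. Gzmb, Pde3b, Ak4, Bnip3 and Egln3 fill the other places. All 30 genes with the largest differences kept their calls when any of the 4 arrays was left out and under both other normalizations.

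**Figure D3:**
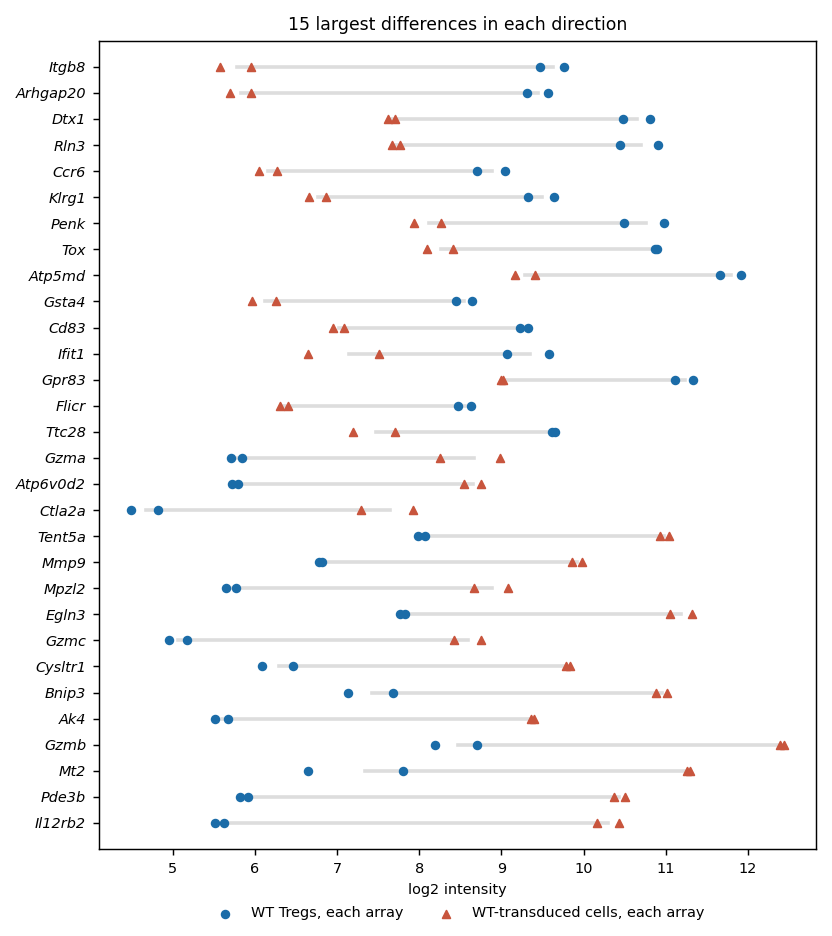
Log2 intensity on each array (x axis) of the 15 genes with the largest differences in each direction, with WT Tregs as blue circles, WT-transduced cells as red triangles and a grey bar between the group means. Circles and triangles never overlap, and the arrays of a group are close together except for a few genes such as Mt2 and Ifit1.

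Cytotoxic granule genes that were called were higher in transduced cells. Of 12 tested members, 5 were higher in WT-transduced cells (19.4% of all genes) and 0 in Tregs (10.8%), with a median of -0.46. Beside Gzmb, Gzmc and Gzma, these were Gzmk, which measured 214 and 187 in Tregs and 449 and 386 in transduced cells (-1.06 ± 0.14), and Ctsw, a cathepsin of cytotoxic lymphocytes (-0.76 ± 0.14). Markers of CD8+ T and NK cells moved with these genes. Of 6 tested markers, 4 were higher in transduced cells and 1, Cd160, in Tregs while WT Treg replicate 2 was included. Cd8a measured 106 and 82.1 in Tregs and 449 and 371 in transduced cells, and Cd8b1 measured 511 and 482 against 768 and 921. Klrd1 measured 31.6 and 31.5 against 209 and 134, while the NK receptors Ncr1 and Klrb1c were below the silent level on all 4 arrays. The summed intensity of the 12 markers on the array was 2237 and 2077 in Tregs and 5021 and 4312 in transduced cells. Their part in the granzyme differences was not tested, and fewer cells of a type and less RNA per cell cannot be told apart in these bulk samples.

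Receptors that direct migration differed in both directions. Of 17 tested chemokine and migration receptors, 7 were higher in WT Tregs (10.8% of all genes) and 6 in WT-transduced cells (19.4%). Beside Ccr6 and Ccr8, Tregs were higher in Ccr9, a gut-homing receptor at 181 and 212 against 61.8 and 54.8, by at least 3.15-fold. They were also higher in Gpr183, which guides cells by oxysterols (1003 and 943 against 398 and 363, 1.36), and Cxcr5, the follicle-homing receptor (245 and 209.8 against 87.6 and 95.5, 1.31). Transduced cells were higher in Ccr2, the receptor for CCL2, at 173 and 269.8 in Tregs and 1466 and 1401 in transduced cells (-2.73 ± 0.20). They were higher in Cxcr6 (94.9 and 132 against 658 and 647, -2.54) and in Cxcr3, the receptor of type 1 effector cells (631 and 507 against 2147 and 1849, -1.82). Ccr3 was also higher there (-1.23).

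Among 17 cytokine receptors, 4 were higher in Tregs (10.8% of all genes) and 5 in transduced cells (19.4%). Il6st, the shared signalling chain gp130, measured 2725 and 2936 in Tregs and 1481 and 1381 in transduced cells (0.98), and Il6ra, which binds IL-6, differed by 0.64. Beside Il12rb2 and Il7r, transduced cells were higher in Il12rb1 (-0.72), Il4ra (-0.75) and Il10ra (-0.70). Both chains of the IL-12 receptor were therefore higher in transduced cells, although Il12rb1 differed by far less than Il12rb2. Ifnar2 (0.50) and Ifngr2 (0.36) were called higher in Tregs, but Ifngr2 lost the call when any of the 4 arrays was left out, and Ifnar2 without WT Treg replicate 1 or WT-transduced replicate 2.

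IL-2 signalling genes were higher in transduced cells where they differed. Of 18 tested members of the IL-2 and STAT5 axis, 9 were higher in WT-transduced cells (19.4% of all genes) and 0 in Tregs (10.8%). The median was -0.35, and 7 members were higher in transduced cells after quantile normalization and after cyclic loess. The survival kinase Pim2 measured 488 and 451 in Tregs and 1392 and 1195 in transduced cells (-1.46 ± 0.14), and Pim1 measured 1698 and 1534 against 3385 and 3039 (-0.99 ± 0.18). Socs3 (-0.77), Ccnd3, a G1 cyclin (-0.76), and Gfi1, a transcriptional repressor (-0.54), were among the others. Myc measured 1800.1 and 1701 against 1811 and 1553 and Cish, a canonical STAT5 target, 1698 and 1448 against 1891 and 1987. Neither was called (0.061 and -0.31), so the list did not move as a block.

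Co-inhibitory receptors and ectoenzymes leaned the other way. Of 14 tested members, 6 were higher in Tregs (10.8% of all genes) and 2 in transduced cells (19.4%), with a median of 0.22. Cd5 (0.38), counted as higher in Tregs, lost its call when only the 4 arrays compared were fitted. The call was also lost when any of the 4 arrays was left out (0.36 to 0.40). Cd200, the ligand of an inhibitory receptor, measured 428 and 479 in Tregs and 204 and 155 in transduced cells (1.35 ± 0.16). Btla measured 809 and 1067 against 475 and 436 (1.03), and Cd96, an inhibitory receptor for nectin-like ligands, measured 3855 and 4401 against 2265 and 1932 (0.98). Lag3, an inhibitory receptor for MHC class II, was higher in transduced cells, at 197 and 195 against 350.4 and 367 (-0.87 ± 0.14). Lair1, a collagen receptor, was higher there by at least 1.79-fold. Tigit, Entpd1 and the ligand Cd274 (-0.30) were not called.

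Of 25 tested members of the TNF superfamily, 10 were higher in transduced cells (19.4% of all genes) and 4 in Tregs (10.8%), with a median of -0.17. Tnfrsf26, a decoy receptor, measured 487 and 481 in Tregs and 1184 and 1158 in transduced cells (-1.27). The ligand Tnfsf8 measured 365 and 402 against 901 and 916 (-1.25) and its receptor Tnfrsf8, CD30, 187 and 208 against 351 and 352 (-0.83). Both members of this pair were therefore higher in the same cells. Tnf itself differed by -0.62. Tnfrsf25 (0.69) and Cd27 (0.47) were higher in Tregs, but without WT Treg replicate 1 only 1 member of the list was, and Cd27 lost its call.

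The TGF-beta axis apart from Itgb8 differed little. Of 19 tested members, 5 were higher in Tregs (10.8% of all genes) and 3 in transduced cells (19.4%). The receptor Tgfbr1 measured 802 and 974 in Tregs and 597 and 501 in transduced cells (0.69 ± 0.14), while Tgfb1 measured 2229 and 1751 against 1879 and 1845 (0.086 ± 0.14) and was not called. Itgav, the partner of Itgb8, was called higher in transduced cells by a small amount (-0.37). That call was lost when any of the 4 arrays was left out (-0.39 to -0.34) and under both other normalizations, and counts in the list went down to 3 and 0 in such fits. Integrins as a family had 5 of 14 members higher in each direction. Itga2, a collagen-binding chain, measured 157 and 209.8 in Tregs and 722 and 567 in transduced cells (-1.82 ± 0.16), and Itga6, a laminin-binding chain, was higher in Tregs (0.80 ± 0.14). Leaving out any 1 of the 4 arrays lowered the integrins called higher in Tregs to 2 or 3.

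Transcription factors of helper lineages differed in both directions. Of 19 tested members, 4 were higher in Tregs (10.8% of all genes) and 5 in transduced cells (19.4%). Id3 and Id2, inhibitors of E proteins that often take opposite courses in T cells, differed in opposite directions. Id3 measured 412 and 305 in Tregs and 116 and 141 in transduced cells (1.47 ± 0.16), whereas Id2 measured 716 and 747 against 4833 and 4508 (-2.67 ± 0.15). Bhlhe40, a factor that supports effector cytokines, measured 229.5 and 221 against 964 and 1061 (-2.17 ± 0.14). Nfil3 measured 169.9 and 159 against 658 and 719 (-2.06), and Runx3, a factor of cytotoxic and type 1 cells, 797 and 769 against 2058 and 2074 (-1.40). Transduced cells were the higher group for these 3 and for Rora (-0.98). Ahr, the aryl hydrocarbon receptor, was higher in Tregs (1.10). Gata3, Irf4, Batf, Maf and Stat3 were not called, with differences between -0.28 and -0.19.

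Early response genes of T cell receptor signalling were mostly higher in Tregs where they were called. Of 21 tested, 7 were higher in Tregs (10.8% of all genes) and 2 in transduced cells (19.4%), with a median of 0.12. Nr4a1, the receptor Nur77 that reports T cell receptor signals, measured 1322 and 1219 in Tregs and 358 and 377 in transduced cells (1.79 ± 0.15). Dusp1, a phosphatase of MAP kinases, measured 3414 and 2878 against 894 and 895 (1.81 ± 0.14), and Nr4a3 differed by 1.14. Fosl2, an AP-1 subunit, was higher in transduced cells at 180.2 and 181 in Tregs and 749.6 and 692 in transduced cells (-2.00 ± 0.15), as was Ier3 (-1.26). Egr1, Jun, Junb and Nfkbia lay within 0.14 of 0 and were not called. Of 16 tested genes of the receptor and its proximal machinery, 4 were higher in Tregs and 2 in transduced cells, led by the adaptor Trat1 (1.12) and the NF-kB protease Malt1 (-0.99). Leaving out either Treg array or WT-transduced replicate 2 left 2 members higher in Tregs, and quantile normalization gave 7.

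Genes of quiescence and recirculation did not follow 1 direction. Of 13 tested, 5 were higher in Tregs (10.8% of all genes) and 3 in transduced cells (19.4%), with a median of 0.22. The repressor Klf3 measured 1565 and 1629.9 in Tregs and 873 and 858 in transduced cells (0.88 ± 0.12), and Tsc22d3, the glucocorticoid-induced protein GILZ, 372 and 358 against 227 and 201 (0.77 ± 0.13). Il7r, Satb1 and Lef1, also members of the list of genes low in Tregs, were higher in transduced cells. The egress receptor S1pr1 and its regulator Klf2 were not called, at -0.002 and 0.057. Of 8 GIMAP GTPases, which support lymphocyte survival, 2 were higher in transduced cells, Gimap7 (-1.08) and Gimap4 (-0.54), the second only while WT-transduced replicate 1 was included.

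Every tested mitosis gene was higher in WT-transduced cells. This held for 23 of 23 genes, with a median difference of -1.65 (-1.59 with genes near the silent level at their bound), and the count was the same under every normalization and with each of the 4 arrays left out. Nusap1, a spindle protein, measured 148 and 231 in Tregs and 1073 and 989.6 in transduced cells (-2.47 ± 0.20). Kif11, the spindle motor Eg5, measured 167 and 325 against 1093 and 1079.6 (-2.22 ± 0.22), and Ccna2, cyclin A, 417 and 606 against 2103 and 1811 (-1.96 ± 0.17). Mki67, the proliferation marker Ki-67, measured 370.4 and 637 against 1697 and 1460.5 (-1.70 ± 0.21). Treg arrays were not at the silent level for these genes, and WT Treg replicate 2 was above replicate 1 in each of them. The smallest differences in the list were those of Melk (-0.73) and Cks2 (-0.83).

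Promoters of the mitosis genes are shown because the members differ together. Among RefSeq promoters (mouse build GRCm38.p6, the 250 bases before each of 32851 starts), 21 starts of 19 mitosis genes were matched. The letters CCAAT, the core bound by NF-Y, stood on either strand in 18 of these 21 (85.7%) and in 33.8% of all promoters. TTTGAA, a form of the cell cycle homology region, stood in 10 of 21 (47.6%) and in 15.99% of all. Below are the 2 promoters with both motifs whose genes had the largest differences and a single start, in the gene's direction, with both motifs in capitals on either strand. Kif11 lies at chr19:37376132-37376381, plus strand, and Cks1b, a cyclin-dependent kinase subunit with a difference of -1.78, at chr3:89418292-89418541, minus strand. A match describes the letters and not binding.
Kif11: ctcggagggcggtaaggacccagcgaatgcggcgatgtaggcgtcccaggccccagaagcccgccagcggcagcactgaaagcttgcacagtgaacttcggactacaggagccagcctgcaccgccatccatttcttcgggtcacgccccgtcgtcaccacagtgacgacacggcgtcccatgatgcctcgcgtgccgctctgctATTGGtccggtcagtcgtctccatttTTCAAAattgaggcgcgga
Cks1b: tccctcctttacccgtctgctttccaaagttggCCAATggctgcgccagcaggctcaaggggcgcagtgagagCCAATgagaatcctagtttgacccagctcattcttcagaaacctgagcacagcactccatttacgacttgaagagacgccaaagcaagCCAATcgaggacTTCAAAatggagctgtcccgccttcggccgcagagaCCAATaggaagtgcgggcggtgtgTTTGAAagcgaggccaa

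DNA replication genes were higher in the same cells, though less uniformly. Of 28 tested, 19 were higher in WT-transduced cells and 0 in Tregs, with a median of -0.65 (-0.59 with bounds). Rrm2, a subunit of ribonucleotide reductase, measured 340.2 and 513 in Tregs and 1038 and 934 in transduced cells (-1.24). Its partner Rrm1 differed by -1.13. Pole, a replicative polymerase, differed by -1.12, and the helicase subunits Mcm5 and Mcm7 by -0.60 and -0.53. Pcna, the sliding clamp, measured 2759.8 and 2866 in Tregs and 3122 and 2745 in transduced cells and was not called (-0.058), nor were Tk1 (0.061) and Mcm2 (-0.29). Of 16 replication-dependent histone genes, which have near-identical copies, 11 were higher in transduced cells and 1 in Tregs (median -0.74). H2bc3 measured 291 and 301 in Tregs and 1026 and 2716 in transduced cells, and the spread between its transduced arrays was large. The histone count fell to 7 without WT Treg replicate 1 and to 6 without WT-transduced replicate 2, and in both fits none was called higher in Tregs.

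Glycolysis and hypoxia-response genes were the other lists in which every tested member was higher in WT-transduced cells. For glycolysis this held for 14 of 14 genes, with a median difference of -1.43. Pgk1, phosphoglycerate kinase, measured 596 and 609 in Tregs and 3892 and 3511 in transduced cells (-2.62 ± 0.17). Tpi1, triose phosphate isomerase, measured 538 and 495 against 2876 and 2809 (-2.46 ± 0.13). The glucose transporter Slc2a1 measured 1189 and 1189 against 4048 and 4375 (-1.82 ± 0.12). For these 3 genes each transduced array was more than 3 times either Treg array. Hk2, hexokinase, differed by -1.93, Pfkp, phosphofructokinase, by -1.93 and Aldoa, aldolase, by -1.61. Ldha, lactate dehydrogenase, was the brightest member and differed by less, at 5614 and 5688 against 8827 and 7540.1 (-0.53 ± 0.13).

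The hypoxia list gave 15 of 15 genes higher in WT-transduced cells, with a median of -1.42 (-1.37 with bounds). Ak4, a mitochondrial adenylate kinase, measured 45.8 and 51 in Tregs and 658 and 675 in transduced cells, at least 9.45-fold higher. Bnip3, a receptor for mitophagy, measured 140.1 and 204 against 2067 and 1894 (-3.55 ± 0.19). Egln3, an oxygen-sensing prolyl hydroxylase, measured 227 and 218 against 2564 and 2117 (-3.39 ± 0.17). Transduced arrays lay far above Treg arrays for all 3. Vegfa, the angiogenic growth factor, measured 122 and 88.1 against 536 and 514 (-2.34 ± 0.17), and Ndrg1 408 and 356 against 1772 and 1917 (-2.27 ± 0.13). Hif1a, the oxygen-regulated subunit itself, measured 1992 and 2429 against 6236 and 5525 (-1.42 ± 0.14). With each of the 4 arrays left out, 11 to 14 of 14 glycolysis genes and 14 of 15 hypoxia genes were called, and quantile normalization gave 12 of 14 and 14 of 15.

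The letters ACGTG, the core of the hypoxia-response element and part of the E-box CACGTG, were counted in the promoters of both lists. They stood on either strand in 10 of 20 promoters of hypoxia genes (50%) and 13 of 22 of glycolysis genes (59.1%), against 16.6% of all 32851. The 2 promoters with a match and a single start whose genes had the largest differences are shown, with the match in capitals. Bnip3 lies at chr7:138909507-138909756, minus strand, where matches on both strands overlap in an E-box, and Egln3 at chr12:54203875-54204124, minus strand.
Bnip3: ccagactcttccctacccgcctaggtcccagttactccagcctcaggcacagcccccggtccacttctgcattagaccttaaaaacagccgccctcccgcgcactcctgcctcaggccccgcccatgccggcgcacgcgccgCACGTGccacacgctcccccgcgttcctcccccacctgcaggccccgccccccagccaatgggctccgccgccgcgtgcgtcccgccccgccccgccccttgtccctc
Egln3: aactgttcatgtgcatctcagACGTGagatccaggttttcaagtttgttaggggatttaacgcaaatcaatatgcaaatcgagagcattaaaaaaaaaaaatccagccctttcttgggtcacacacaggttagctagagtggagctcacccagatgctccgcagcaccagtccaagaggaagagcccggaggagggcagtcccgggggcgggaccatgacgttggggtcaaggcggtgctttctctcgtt

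The size of these differences was not the same in the arrays of every Foxp3 form. No separate cultures are named within a form, so the form and the preparation of its cells cannot be told apart. The same contrast, Tregs minus transduced cells, was available on 8 other arrays, from Foxp3(M354/M354) and Foxp3(M176/M176) Tregs and from WT Tcons transduced with either form, of the same strain, sex, age and tissue. With M354, 13 of 15 hypoxia genes were higher in transduced cells (32.3% of all genes were) with a median of -0.91, and with M176 11 of 15 (20% of all genes) with a median of -0.76. The test of the difference between contrasts called 1.07% of all genes for WT against M354 (0.247% more positive with WT) and 5.46% for WT against M176. It found 8 of the 15 more negative with WT than with M354 (0.819% of all genes were) and 9 of 15 more negative with WT than with M176 (4.01%). For glycolysis these counts were 6 of 14 and 6 of 14, and all 15 hypoxia genes had their most negative value with WT. The counts of this test rest on the main fit and were not examined under other normalizations or with arrays left out. Ak4, Plod2 and Higd1a had Tregs of at least 1 form below the silent level, where the size of a contrast is a bound. Over the 12 hypoxia genes above that level in all 6 groups, a restriction added after seeing the data, 6 were more negative with WT than with M354 (0.649% of the 8627 such genes were) and 7 than with M176 (3.65%), with medians of -1.39 for WT, -0.93 for M354 and -0.69 for M176. Ak4 measured 658 and 675 in WT-transduced, 132.9 and 142.7 in M354-transduced and 133.3 and 143.4 in M176-transduced cells, while Tregs of all 3 forms were below the silent level. Ndrg1 differed between Tregs and transduced cells by -2.27 with WT, -0.47 with M354 and -0.44 with M176. Pgk1 gave -2.62, -1.50 and -0.85. Mitosis genes did not share this order: 23 of 23 were higher in transduced cells with each form, and 10 were less negative with WT than with M176 (1.46% of all genes were), with medians of -1.65 for WT, -1.63 for M354 and -2.43 for M176. Of the 16 mitosis genes above the silent level in all 6 groups, 7 were less negative with WT than with M176.

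**Figure D4:**
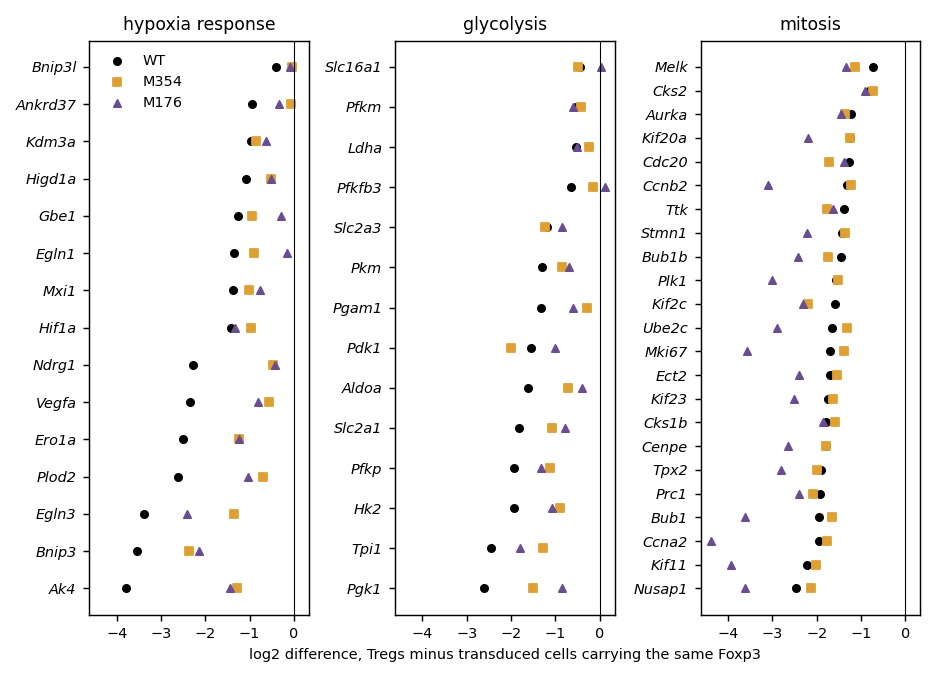
Log2 differences, Tregs minus transduced cells carrying the same Foxp3 form (x axis, negative is higher in transduced cells), for the tested genes of 3 lists, with WT as black circles, M354 as yellow squares and M176 as purple triangles, each the difference of 2 arrays and 2 arrays. The circles are leftmost for all 15 hypoxia genes, of which Ak4, Plod2 and Higd1a had Tregs of at least 1 form below the silent level, while in the mitosis list the triangles are leftmost for most genes.

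Interferon-response genes were the list with the largest share higher in WT Tregs. Of 24 tested, 14 were higher in Tregs and 0 in transduced cells, with a median of 0.57 against -0.076 over all genes. Usp18, which removes the ubiquitin-like ISG15, measured 992 and 1021 in Tregs and 262 and 199 in transduced cells (2.14 ± 0.16). Ifit1, which binds foreign RNA caps, measured 539 and 763 against 183 and 99.9 (2.25 ± 0.22), and Ifit3 409 and 463 against 134 and 138 (1.68 ± 0.14). Oasl2 differed by 1.78, Oas2 by 1.31 and Oas1a by 1.24. Treg arrays were above transduced arrays for all 6. The list was not uniform, since Ifit2 (0.082), Irf9 (0.10), Ddx58 (-0.014), Isg20 (-0.19) and Zbp1 (-0.19) were not called. With M354 and with M176 the counts higher in Tregs were 14 (15.2% of all genes) and 15 (11.8%), with 1 higher in transduced cells in each. With WT, 1 was higher in transduced cells when WT-transduced replicate 2 was left out, and 10 to 14 were called higher in Tregs with each array left out.

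The letters TTTCNNTTTC, which mark the interferon-stimulated response element, stood on either strand in 9 of 23 promoters of these genes (39.1%) and in 2.98% of all 32851 promoters. Ifit1, at chr19:34640639-34640888, plus strand, and Ifit3, at chr19:34583279-34583528, plus strand, are the genes with the largest differences among those with a match and a single start, and each has 2 matches, in capitals.
Ifit1: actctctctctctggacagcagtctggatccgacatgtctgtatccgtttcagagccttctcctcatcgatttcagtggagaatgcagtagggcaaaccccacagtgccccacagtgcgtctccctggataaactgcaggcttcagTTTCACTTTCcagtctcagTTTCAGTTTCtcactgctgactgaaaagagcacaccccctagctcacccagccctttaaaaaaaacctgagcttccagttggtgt
Ifit3: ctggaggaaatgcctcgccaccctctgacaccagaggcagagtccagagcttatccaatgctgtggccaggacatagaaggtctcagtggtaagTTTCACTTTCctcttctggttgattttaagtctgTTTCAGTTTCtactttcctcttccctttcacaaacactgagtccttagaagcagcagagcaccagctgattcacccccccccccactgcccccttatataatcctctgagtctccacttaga

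Lists of biosynthesis differed less than those of division and glycolysis. Over all genes, 10.8% were called higher in Tregs and 19.4% in transduced cells. By list, 9.52% of ribosome biogenesis, 16.7% of ribosomal protein and 25.9% of oxidative phosphorylation genes were called, against 30.2% of all genes tested. For small nucleolar RNAs the share was 38.9%. Ribosome biogenesis had 2 of 21 tested members higher in transduced cells (median -0.057), and cytosolic ribosomal proteins 4 of 54 higher in Tregs and 5 in transduced cells (median -0.026). Among them Odc1, the first enzyme of polyamine synthesis, differed by -0.93 ± 0.15. After quantile normalization 4 ribosome biogenesis genes and 8 ribosomal protein genes were called higher in Tregs, so their direction depended on the scaling. Oxidative phosphorylation then had 4 higher in Tregs and 7 in transduced cells, and after cyclic loess 3 and 9. Small nucleolar RNAs had 6 and 2 after quantile normalization and 6 and 3 after cyclic loess. Without WT Treg replicate 1, 2 ribosomal protein genes were higher in transduced cells, and without WT Treg replicate 2 or WT-transduced replicate 1, 1 ribosome biogenesis gene was. Oxidative phosphorylation had 3 of 58 members higher in Tregs and 12 in transduced cells (median -0.15). Those counts fell to 1 and 7 without WT Treg replicate 1 and to 1 and 6 without WT-transduced replicate 1. Small nucleolar RNAs, with 6 of 36 higher in Tregs and 8 in transduced cells, had 2 in transduced cells without WT Treg replicate 1 and 3 without WT-transduced replicate 2.

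Amino acid uptake and ATF4 targets had 8 of 23 members higher in transduced cells (19.4% of all genes) and 0 in Tregs (10.8%), with a median of -0.20. Asns, asparagine synthetase, measured 151 and 154 in Tregs and 421 and 291 in transduced cells (-1.19 ± 0.22), and Sesn2, a stress-induced inhibitor of mTORC1, 182 and 169.5 against 337 and 312 (-0.89 ± 0.14). The count fell to 5 without WT Treg replicate 1 and 4 without WT-transduced replicate 1. Without WT-transduced replicate 2, 1 member was higher in Tregs. Fatty acid synthesis had 5 of 9 members higher in transduced cells, led by the elongase Elovl6 at 398 and 393 against 1221 and 1091 (-1.54 ± 0.14), or 3 without WT-transduced replicate 1, and without WT Treg replicate 1 a single member was higher in Tregs. Cholesterol synthesis had 6 of 18 higher there and 1 in Tregs. The first count was 3 without WT Treg replicate 1, 2 without WT-transduced replicate 1 and 3 under either other normalization.

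Survival and stress genes gave few calls. Bcl2l11, the pro-apoptotic protein BIM, measured 399 and 404 in Tregs and 902 and 713 in transduced cells (-0.999 ± 0.16), and Bak1 differed by -0.62, while 1 of the 11 BCL-2 family members tested, the survival factor Mcl1, was higher in Tregs (0.53) as long as WT Treg replicate 2 and WT-transduced replicate 2 were included (0.39 and 0.41 without them). Heat shock and ER chaperones had 1 of 19 higher in Tregs (10.8% of all genes were) and 5 in transduced cells (19.4%), against 3 and 3 after quantile normalization and 2 and 3 after cyclic loess. The second count fell to 1 without WT Treg replicate 1 and to 2 without WT Treg replicate 2 or WT-transduced replicate 1. Sdf2l1, an ER chaperone component, was higher in transduced cells at 173 and 175.9 against 345 and 535 (-1.30 ± 0.21). Of 5 p53 targets, Zmat3 was called (-0.58), but not without WT Treg replicate 1, WT Treg replicate 2 or WT-transduced replicate 1. Of 7 circadian clock genes 1 was called, Ciart, a repressor of the clock, which measured 87.7 and 77.7 in Tregs and 301 and 219 in transduced cells (-1.64 ± 0.17).

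Secreted factors were represented by 11 tested genes, 3 higher in Tregs (10.8% of all genes) and 4 in transduced cells (19.4%). Il16 was the weakest of those higher in Tregs (0.36), and lost its call when only the 4 arrays compared were fitted. It also lost the call when any of the 4 arrays was left out (0.35 to 0.37). Beside Penk, Cxcl10, a chemokine for CXCR3, was higher in Tregs at 245 and 268 against 131 and 123 (1.01 ± 0.15). Ccl22, a ligand of CCR4, was near the silent level in Tregs and higher in transduced cells by at least 2.19-fold. The other 2 calls in transduced cells outside Ebi3 were Tnf and Il2.

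**Figure D5:**
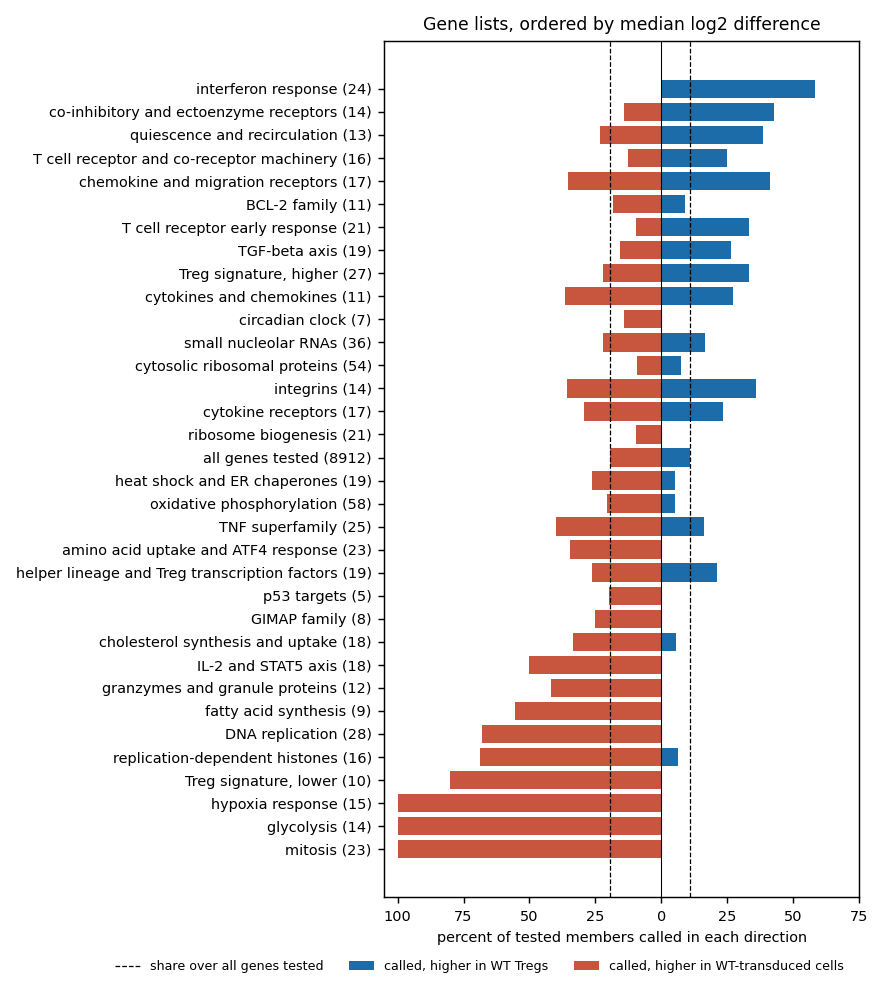
Percent of the tested members of each of 33 gene lists and of all genes tested that were called higher in WT Tregs (blue, to the right) or in WT-transduced cells (red, to the left), ordered by median log2 difference, with list sizes in parentheses and dashed lines at the shares over all genes (10.8% and 19.4%). Mitosis, glycolysis and hypoxia reach 100% to the left, and the interferon list reaches farthest to the right.

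Markers of other cells differed between the groups and between the Treg arrays. Of 10 tested B cell markers 1 was called in each direction, or 3 higher in Tregs without WT Treg replicate 1 and 3 higher in transduced cells without WT Treg replicate 2. Cd79a measured 93.8 and 399 on WT Treg replicates 1 and 2, against 390.1 and 372 in transduced cells, and Ms4a1 38 and 213 against 287 and 222. MHC class II genes had 6 of 7 tested members higher in transduced cells and 1, H2-Ob, in Tregs. H2-Aa measured 68.2 and 557 in Tregs and 604 and 619.6 in transduced cells, so that WT Treg replicate 2 was near the transduced arrays. Without WT Treg replicate 1 the MHC class II count fell to 1 and without WT-transduced replicate 1, or under either other normalization, to 3. The summed intensity of the 12 B cell markers was 1792 and 2836 in WT Tregs and 2371 and 2228 in WT-transduced cells. It was 1884 and 1771 in M354 Tregs and 1739 and 1659 in M176 Tregs. For the 8 MHC class II markers the sum was 2650 and 4231 in WT Tregs and 4800 and 5274 in WT-transduced cells. It was 2588 and 2669 in M354 Tregs and 3231 and 2627 in M176 Tregs. In both sums WT Treg replicate 2 was the brightest Treg array, and replicate 1 lay within the range of the other forms. The part of such cells in other differences was not tested.

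The plasma cell and neutrophil genes that were called were brighter in transduced cells, but other markers of these cells did not all share that direction. Mzb1 measured 109 and 95.8 in Tregs and 293 and 257 in transduced cells (-1.43 ± 0.14), and Jchain, the joining chain of antibodies, was higher by at least 2.59-fold. Of 4 tested myeloid markers 2 were higher in transduced cells and 1, Cybb (0.72), in Tregs. Lcn2 and Ngp, proteins of neutrophil granules, were higher by at least 4.39-fold and at least 3.77-fold. S100a8 was below the silent level on all 4 arrays, as were Cd14 and Adgre1. Among markers too dim to test, the plasma cell marker Sdc1 measured 102.6 and 89.9 in Tregs and 71.8 and 72.5 in transduced cells. Camp measured 109 and 94.5 against 83.7 and 95.7, S100a9 80.8 and 71.7 against 56.7 and 68.7, and Itgam 56.7 and 57.1 against 83.9 and 83.7. The summed intensity of the 12 myeloid markers was 1021 and 1016 in Tregs and 1246 and 1445 in transduced cells, and that of the 4 plasma cell markers 331 and 266 against 636 and 529. Of 8 dendritic cell and 4 erythroid markers in the table, 1 each was bright enough to test and neither was called.

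WT calls were compared with those of the other Foxp3 forms. The M354 contrast called 4231 genes (47.5%), 1352 higher in Tregs (15.2% of all genes) and 2879 in transduced cells (32.3%). The M176 contrast called 2830 (31.8%), 1049 higher in Tregs (11.8%) and 1781 in transduced cells (20%). All 3 contrasts use the spread of each gene from 1 fit, so their calls are not independent. Quantile normalization gave 1867 and 1765 with M354 and 1435 and 1480 with M176. The M354 total was 2222 without M354 Treg replicate 1 and 2665 without M354-transduced replicate 2, and the M176 total 1582 without M176 Treg replicate 1 and 1712 without M176-transduced replicate 1. Of the 964 genes higher in WT Tregs, 784 were also called with M354 (81.3% of the WT list and 58.0% of the M354 list) and 368 with M176 (38.2% and 35.1%). Of the 1726 genes higher in WT-transduced cells, 1509 were called with M354 (87.4% and 52.4%) and 1027 with M176 (59.5% and 57.7%). In all 3 contrasts 300 genes were higher in Tregs and 911 in transduced cells. Opposite calls were given by M354 to 2 and 5 of the WT genes and by M176 to 7 and 57.

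The recurring genes include the largest differences. Itgb8 differed by 3.49 with M354, and measured 405 and 456 in M176 Tregs and 55.7 and 53.2, below the silent level, in M176-transduced cells. Dtx1 differed by 3.64 with M354 and 3.96 with M176. Il12rb2 measured 1001 and 1229 in M354-transduced and 986 and 1004 in M176-transduced cells, with Tregs of both forms below the silent level. Pde3b measured 79.6 and 91.6, near the silent level, in M354 Tregs and 1965 and 2092 in M354-transduced cells, and differed by -3.58 with M176. Tent5a, Mmp9 and Atp6v0d2 also kept the direction and the call. Klrg1 did not share its difference with M176, where it was 0.36 and not called, and the WT contrast was more positive by 2.36 (adjusted p = 8e-05). Klrg1 measured 172 and 129.6 in M176 Tregs, below the 640.1 and 801 of WT Tregs. Ccr6 was higher with WT than with M176 by 1.77 (adjusted p = 0.00014). Gzmb measured 47.6 and 52.8 in M176 Tregs, below the silent level, and 3791 and 5270 in M176-transduced cells, so no size is given for its M176 contrast.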

How the data were processed

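Per the submitters' processing notes, the arrays were summarised with Affymetrix Power Tools by RMA. The authors deposited linear intensities, with 1 value for each probe set on every array. Of 20716 probe sets, 17703 had 1 gene symbol, 1246 several and 1767 none, from GEO's platform annotation. Genes of X inactivation and chromosome Y were left out (10 genes). A gene was tested above its array's median (percentile 50) on at least 2 of 12 arrays. Array medians were 101.5 to 117.4.

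Log2 intensities were fitted with limma 3.58.1 in R 4.3.3 (lmFit and eBayes, 1 mean per group, all 12 arrays, 6 residual degrees of freedom). The difference between the contrasts of 2 Foxp3 forms was tested in the same fit. The script was tested on simulated data. Alternatives were other normalizations, filters and probe set summaries, 16 added before log2, a replicate block, array weights, the 4 arrays alone, and each array left out.

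The members, the 33 gene lists and 8 marker lists were chosen with earlier results of these data known. Named are Foxp3, Il2ra, Thy1, the 15 largest called differences each way, all members of both Treg lists and up to 6 called members each way of the others. Members named in the text as not called, and genes described beyond these, were chosen after their values were seen.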

Additional observations from a re-analysis of the deposited data

Results flagged for a closer look

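The difference between Tregs and transduced cells itself differed between the arrays of the Foxp3 forms, by limma's test of the difference of contrasts. Form and preparation of the cells cannot be told apart here. It differed between WT and M354 for 95 of 8912 genes (1.07%), 22 more positive and 73 more negative with WT. Among hypoxia genes, Egln3 differed by -2.04 (adjusted p = 0.00032).

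Between WT and M176 the difference changed for 487 genes (5.46%), 130 more positive and 357 more negative with WT. Of 58 oxidative phosphorylation genes 21 were more negative with WT, and of 54 ribosomal protein genes 14. For oxidative phosphorylation the medians were -0.15 with WT, -0.46 with M354 and 0.47 with M176. At an unadjusted p under 0.05 the 2 tests counted 720 and 1866 genes. Counts from both tests rest on the main fit, and were not examined under other normalizations or with arrays left out.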

How the results depend on the processing

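Single genes were checked for the 255 named by the rule above, of which 241 were called. Genes described beyond that rule, as under Other observations, were not checked. For single genes, leave-outs covered the compared arrays and not the other 8. None of the 241 changed direction in the alternatives checked. In at least 1 of these, 68 lost the call, none of them among the 30 largest differences. The filter at percentile 75 did not test all 255 (201 unchanged, 6 weaker), and untested genes do not count as lost. Leaving out each compared array in turn, the WT contrast called 1501 to 2613 genes (454 to 835 higher in Tregs, 1026 to 1778 in transduced cells), of which 449 to 543 at 2-fold or more. The same call in all 3 contrasts was given to 912 to 1179 genes against 1211, the M354 contrast called 2222 to 4028 and the M176 contrast 1582 to 2222. Leave-outs of the other 8 arrays were added after seeing the data. A filter at percentile 75 tested fewer genes and gave 1334 in all, 368 higher in Tregs, 966 higher in transduced cells, 275 at 2-fold or more, 680 shared by all 3 contrasts, 2048 for M354 and 1735 for M176. With no filter 1899 genes were higher in Tregs, and the M354 contrast called 6842. The other alternatives kept each total within 1.5 times. Deviations of equal replicate numbers correlated at -0.43 between both WT groups and at -0.551 to 0.25 over all pairs of groups. With 2 arrays a group, a negative correlation of equal numbers is a positive one of the same size for unequal numbers. Pairs of groups varied widely in this value, so it does not settle whether equal or unequal numbers mark linked arrays in the WT groups. No crossed pairing was fitted. With a replicate block the WT contrast called 2484 genes. Genes with a group near the silent level have only a bound for their fold.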

Other observations

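Gene families outside the lists were looked at after their values were seen, against 10.8% and 19.4% of all genes called in each direction. Of 6 tested IFITM genes, which restrict viral entry, 3 were higher in WT-transduced cells and 1 in Tregs, the reverse of most interferon-response genes. Ifitm1 measured 284 and 265 in Tregs and 1771 and 1531 in transduced cells (-2.59 ± 0.17), Ifitm2 266 and 234 against 1266 and 1169 (-2.29), and Ifitm3 158 and 205 against 905 and 639 (-2.08). Of 7 tested S100 genes, 3 were higher in transduced cells and 1, S100a13 (0.52), in Tregs. Of 5 tested annexins, 3 were higher in transduced cells and 0 in Tregs. Calcium-binding S100a6 measured 121 and 103 against 532 and 631 (-2.38), and its partner annexin Anxa2 168 and 179 against 774 and 701 (-2.09). Mt1 followed Mt2, at 150.3 and 154 against 683 and 677 (-2.16).

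Several innate sensors were higher in Tregs. Of 7 NAIP and NOD-like receptors, 4 were higher in Tregs and 1 in transduced cells. Nod1, a sensor of bacterial peptidoglycan, measured 581 and 583 in Tregs and 220.3 and 167 in transduced cells (1.60 ± 0.16). Naip5 and Naip6 were near the silent level in transduced cells and higher in Tregs by at least 3.17-fold and at least 3.24-fold. Of 6 tested Toll-like receptors, 2 were higher in Tregs and 0 in transduced cells. Tlr7, the sensor of single-stranded RNA, measured 479 and 638 against 138 and 119 (2.11 ± 0.17). Of 22 forkhead genes, 5 were higher in Tregs and 1, Foxm1 (-1.51), in transduced cells. Foxn3 (0.86) and Foxp4 (0.76) were the brighter of those higher in Tregs. Foxb2 (0.46), Foxi2 (0.39) and Foxn4 (0.37) were dim, with no array above 167, and the silent level was higher on the Treg arrays.

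Phosphodiesterases that were called shared the direction of Pde3b. Of 9 tested, Pde3b included, 5 were higher in transduced cells and 0 in Tregs, among them Pde2a at 627 and 555 against 1622 and 1830.0 (-1.55 ± 0.13) and Pde4d (-0.92). Of 12 cathepsins 6 were higher in transduced cells, while Ctss, which trims the class II invariant chain, was higher in Tregs (0.83 ± 0.16). Of 31 proteasome subunits 7 were higher in transduced cells and 0 in Tregs, led by Psmb4 (-1.33). Of 155 solute carriers, 19 were higher in Tregs and 40 in transduced cells.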
